A study of Mus musculus with 6 samples.

Results

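The myogenic basic helix-loop-helix (bHLH) factors are the 4 genes Myod1, Myf5, Myf6 and Myog, chosen by name from the 21883 protein-coding genes placed on the GRCm38 mouse genome. Peaks were taken in the span of each gene record and 20 kb on either side. The data come from P19 cells, a mouse embryonal carcinoma line grown in proliferation medium with fetal bovine serum and without a differentiating treatment named in the labels. Native chromatin, that is chromatin without crosslinking, was immunoprecipitated with 1 antibody to crotonylated lysine 9 of histone H3 (H3K9cr) or 1 to acetylated lysine 9 (H3K9ac), with 2 biological replicates each. These 4 libraries have a peak list each, of 28360 and 28345 peaks for H3K9cr and 26096 and 27474 for H3K9ac, and the 2 input libraries were not analysed here. All cells are of 1 line and 1 state, so every comparison is between marks, between replicates or between loci. Peak strength is given below as the percentile of the summit pileup within its own list, because the pileup scales of the lists differ and read depth is not stated in the sources used here. Since the libraries come from bulk cells, fewer cells with a mark and less of it per cell cannot be told apart.

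Myogenic bHLH factors bind the E-box, a DNA motif spelled CANNTG, as dimers with the widely expressed E proteins. Myf5, Myod1 and Myf6 (also called Mrf4) can commit embryonic cells to the skeletal muscle lineage, and Myog (myogenin) drives committed myoblasts to differentiate into fibres. Myf5 and Myf6 are neighbours and share a large block of enhancers. Acetylation and crotonylation of lysine 9 both mark active promoters and enhancers, and P19 cells can be turned into cardiac and skeletal muscle by chemical treatment or by forced expression of Myod1.

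The members' promoters are shown first, because the results turn on where the peaks lie relative to them. RefSeq promoter sequence of build GRCm38.p6 was at hand for Myog and Myf5. The 250 bases before the annotated transcript start are given 5′ to 3′ on the gene's strand, with matches to CANNTG in capitals. They lie at chr1:134289754-134290003 on the plus strand and chr10:107486135-107486384 on the minus strand.
Myog: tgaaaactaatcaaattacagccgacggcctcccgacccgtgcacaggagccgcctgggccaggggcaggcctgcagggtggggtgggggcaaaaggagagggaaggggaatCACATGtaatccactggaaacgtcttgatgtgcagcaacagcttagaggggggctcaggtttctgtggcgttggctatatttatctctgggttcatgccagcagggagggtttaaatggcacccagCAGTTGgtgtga
Myf5: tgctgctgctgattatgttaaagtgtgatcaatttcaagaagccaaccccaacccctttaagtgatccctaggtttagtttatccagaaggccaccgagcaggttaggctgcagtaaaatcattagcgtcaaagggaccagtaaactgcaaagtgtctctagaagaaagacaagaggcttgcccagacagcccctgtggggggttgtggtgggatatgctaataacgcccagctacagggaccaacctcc

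Neither promoter carried a peak of either mark in any library. The nearest peak edge was 2343 to 8729 bp from the Myog promoter and 6626 to 6739 bp from the Myf5 promoter, depending on the library. The Myog promoter held 2 E-boxes, which begin 138 and 12 bases before the start, and the Myf5 promoter held 0. The motif reads the same on both strands. At least 2 E-boxes were found in 28.5% of the 21262 promoters of protein-coding genes in the table, and at least 1 in 62.8%, so the letters are common in windows of this length.

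Both promoters were poor in CpG, the dinucleotide that is dense at promoters of housekeeping and many developmental genes. Observed over expected CpG was 0.202 at Myf5 (percentile 23.5 of all promoters) and 0.372 at Myog (percentile 39.0), against a median of 0.530. Their GC contents were 48.8% and 56.4%. Among promoters within 0.1 of the Myf5 ratio, 14.1% had a peak in every library and 81.4% had none. Around the Myog ratio, 43.6% had a peak in every library and 50.7% had none, and over all promoters these shares were 58.7% and 38.2%. Lack of a peak was thus the more common state among promoters with a CpG ratio like that of Myf5 or Myog. These shares describe promoters, of which neighbouring genes may share one.

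**Figure D1:**
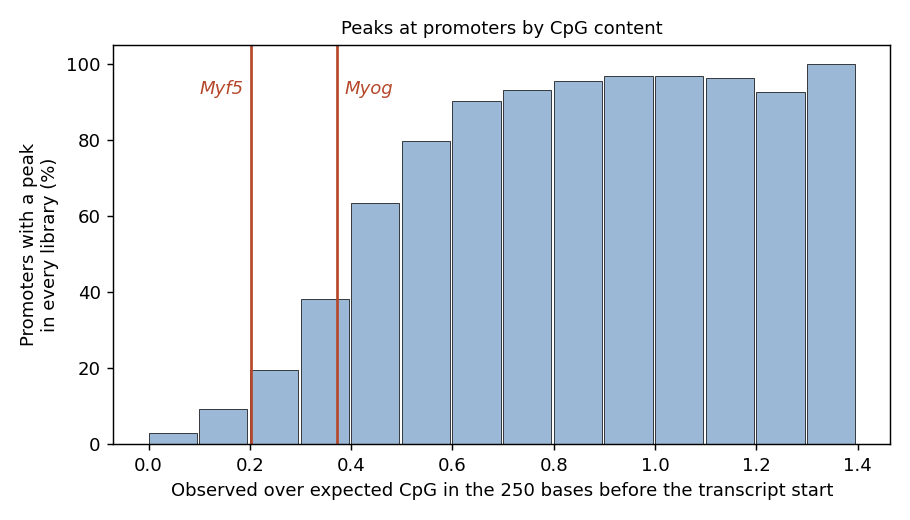
Share of promoters with a peak in every library (vertical axis, percent), by observed over expected CpG in the 250 bases before the start (horizontal axis, bins with under 20 promoters not drawn). Bars are bins of all protein-coding promoters in the table, and the lines mark Myf5 at 0.202 and Myog at 0.372, on the part of the axis where bars are low.

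Within 20 kb, all 4 members had at least 1 peak of both marks in every library, but much of this signal lay at other genes. Under the same rule 74.3% of all protein-coding genes had a peak in every library, so the members' count is read against that share. Inside the gene records alone, Myod1 and Myf6 had a peak in every library, Myog in 3 of 4 and Myf5 in 0 of 4. Over all protein-coding genes, 66.3% had a peak inside the record in every library and 31.2% in none. The members are short, and among the 4230 genes no longer than Myf5, the longest of them at 4020 bp, these shares were 29.6% and 68.9%. The windows of Myf5 and Myf6 overlap, so the 4 genes stand for 3 separate loci. Each library had 5 separate peaks in these windows.

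**Figure D2:**
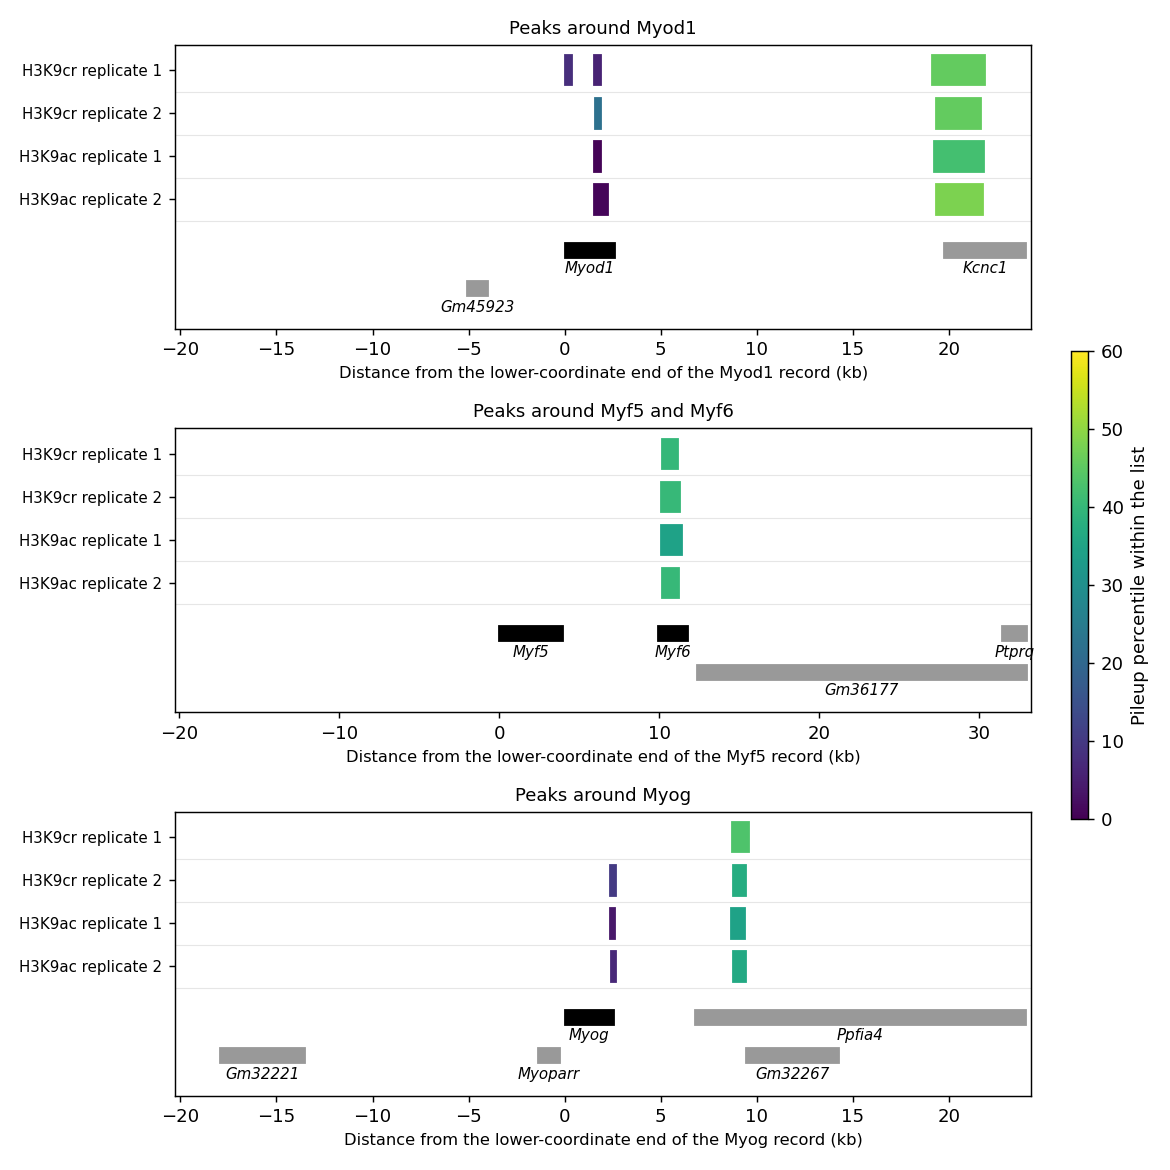
Peaks of each library (rows) around the members, by distance from the lower-coordinate end of the gene record in kb (horizontal axis). Coloured boxes are peaks, shaded by the percentile of their summit pileup in the list, and boxes beneath are gene records (black for members, grey for other coding and long noncoding genes). The boxes in or at Myod1 and Myog are dark (percentiles 0.650 to 22.2), whereas those at Myf6, Kcnc1 and Ppfia4 are lighter (34.6 to 48.1).

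Myod1 lies on chromosome 7 at 46376474 to 46379092 and carried only narrow, low peaks. A peak inside the gene, between 46378009 and 46378720, was listed in all 4 libraries, and its summits fell within 117 bp of each other. Its summit pileup stood at percentiles 5.85 and 22.2 of the H3K9cr lists and 0.650 and 0.903 of the H3K9ac lists. By rank, with 1 the highest pileup, it was 26419 of 28360 and 21915 of 28345 for H3K9cr, and 25810 of 26096 and 27114 of 27474 for H3K9ac. By percentile, both H3K9cr libraries therefore placed the peak higher than both H3K9ac libraries did, although the H3K9cr replicates were far apart. By rank from the top the marks overlapped, since H3K9cr replicate 1 stood below H3K9ac replicate 1, whose list is shorter. These ranks were known when the gene was chosen, so they are a description with no test. For the highest peak inside the gene, both H3K9cr percentiles lay above both H3K9ac percentiles at 32.7% of the 14513 genes with a peak in every library. The reverse held at 8.76%, so the same order of percentiles was found at many genes. The H3K9cr lists are the longer ones, and these shares were not computed with lists of equal length.

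The same peak measured 336 and 320 bp in the H3K9cr libraries, and 363 and 701 bp in those of H3K9ac. The order of the marks in length was thus the opposite of that in pileup percentile. However, the marks were closer to each other in length than the H3K9ac replicates were, so no difference in length is read from it. The share of other peaks with this order in length is not given here. The authors' fold enrichment of this peak averaged 6.60 ± 1.99 over the H3K9cr libraries and 3.96 ± 0.419 over the H3K9ac ones (SD, n = 2 each). The -log10 q-value was 6.74 and 15.2 for H3K9cr, and 2.93 and 3.99 for H3K9ac. The H3K9ac values are near the lower limit of the lists, whose smallest -log10 q lies between 2.02 and 2.06. H3K9cr replicate 1 had a further peak of 385 bp at the lower-coordinate end of the gene (46376475 to 46376859, percentile 7.86), which no other library listed. The gene table used gives no strand for Myod1.

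The strongest peak in the Myod1 window belonged to a neighbour. It covered the end of Kcnc1, which encodes a voltage-gated potassium channel of fast-firing neurons, and lay between 46395595 and 46398330. Its pileup percentile was 45.7 and 45.6 in the H3K9cr libraries and 42.1 and 48.1 in the H3K9ac libraries, so the marks overlapped. It was 2736, 2333, 2607 and 2443 bp long in the same order, which placed it at percentiles 81.3 to 89.0 for length. This peak was wide for its height, since length and pileup percentiles were far apart in all 4 libraries. On the other side of Myod1, where its known distal enhancers lie, no library had a peak within 20 kb. The nearest one there, 27.3 kb away and outside the window, was listed in H3K9cr replicate 2 (percentile 4.37) and H3K9ac replicate 2 (3.30) and in neither replicate 1. The Kcnc1 peak, 16503 to 16725 bp from Myod1, was the farthest one inside the window.

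Myf6 had the strongest signal of the members' own genes. It lies on chromosome 10 at 107492848 to 107494723, and a single peak between 107493010 and 107494342 lay wholly inside its record in each library. The pileup percentile was 39.9 and 40.2 for H3K9cr and 34.6 and 40.1 for H3K9ac. The marks overlapped, and 3 of the 4 values were nearly equal. The peak extended over 985 and 1176 bp in the H3K9cr libraries and over 1333 and 1015 bp in the H3K9ac ones, which covered 52.5% to 71.1% of the gene. By the authors' fold enrichment the peak stood at percentiles 44.2, 44.8, 39.3 and 44.5 in the same order, and all summits fell within 85 bp. Both the height and the length were close to or below the middle of the lists.

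Myf5, on the same chromosome at 107482908 to 107486927, had no peak in its record in any library. The promoter bases shown above, at 107486135 to 107486384, lie inside that record, so they are no separate observation. The record extends past the transcript start used for them. The Myf6 peak, 6083 to 6196 bp from the Myf5 record, was the single peak in its window and makes up all of its occupancy. Gm36177, a long noncoding RNA gene, begins 0.545 kb from the Myf6 record, and its end lay 926 to 1177 bp from the peak. No peak lay within 20 kb on the far side of Myf5, and none of the 4 libraries had another peak within 50 kb of either gene. The coding gene on the other flank, Ptprq, begins 19.6 kb from Myf6 and had no peak at that end.

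Myog lies on chromosome 1 at 134290004 to 134292548 on the plus strand. Its own peak was at the 3′ end, where it began 2342 to 2388 bp after the transcript start and overlapped the record by 157 to 203 bp. It was listed in H3K9cr replicate 2 (309 bp, percentile 10.1), H3K9ac replicate 1 (270 bp, 3.78) and H3K9ac replicate 2 (273 bp, 6.71), and was missing from H3K9cr replicate 1. A missing peak is one that did not pass the authors' threshold, and the -log10 q-value where it was listed was only 3.42 to 4.55. Myoparr, a long noncoding RNA transcribed from the Myog promoter region and known to act on myogenin expression in mouse myoblasts, ends 0.243 kb before Myog and had no peak.

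A stronger peak beyond Myog lay in the body of Ppfia4, which encodes a liprin, a scaffold protein of synapses and cell junctions. It spanned 134298661 to 134299618 and reached or lay close to the end of the noncoding gene Gm32267. Its percentile was 43.2 and 37.2 for H3K9cr and 34.6 and 36.2 for H3K9ac, and its length was 887, 701, 729 and 703 bp in that order. Both H3K9cr percentiles were above both H3K9ac percentiles, but the lower H3K9cr one exceeded the higher H3K9ac one by less than the H3K9cr replicates differed. By rank from the top the peak was 16034 and 17731 for H3K9cr, and 16945 and 17446 for H3K9ac. H3K9cr replicate 2 thus ranked below both H3K9ac libraries, whose lists are shorter. For the highest peak inside a gene, the order seen in percentiles was found at 32.7% of the 14513 genes occupied in every library, and the reverse at 8.76%. The next peak on the promoter side was 45.1 to 45.2 kb from Myog, outside the window, at percentiles 28.6 to 35.1 in all 4 libraries.

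**Figure D3:**
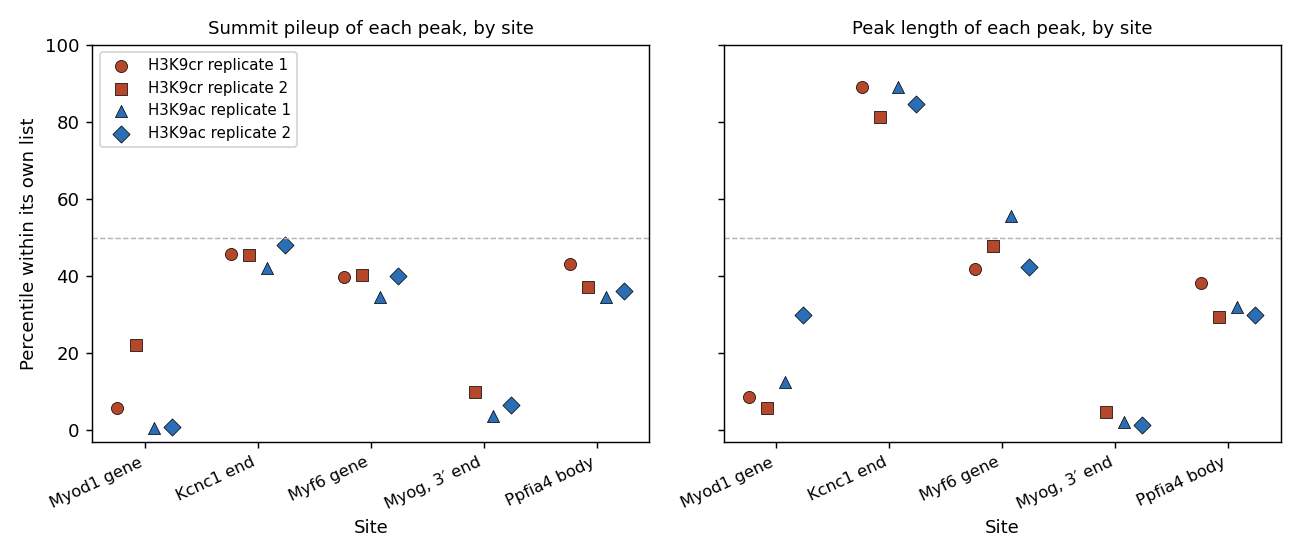
Percentile of summit pileup (left) and of peak length (right) within the list of each library, for the 5 sites in the members' windows. Each point is 1 library (red H3K9cr, blue H3K9ac), the dashed line is the middle of a list, and the extra Myod1 peak of H3K9cr replicate 1 is not drawn. All pileup points lie below the line, and Kcnc1 lies above it for length (81.3 to 89.0).

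In order of the strongest peak inside the gene, Myf6 (percentile 34.6 to 40.2 over the 4 libraries) came first, well above Myod1 (0.650 to 22.2) and Myog (3.78 to 10.1 in the 3 libraries that listed it). The ranges of Myod1 and Myog overlapped, so their order is not resolved, and Myf5 had no peak to rank. Among all genes with a peak inside the record, the Myf6 peak stood at percentiles 8.40 to 9.92 of the genes' highest peaks, that of Myod1 at 0.0889 to 3.49 and that of Myog at 0.458 to 1.31. These percentiles rank genes by their highest peak and are not those among all peaks of a list.

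The amount of DNA covered in the windows differed between marks by little. At Myod1, 3457 and 2653 bp were covered by H3K9cr peaks and 2970 and 3144 bp by H3K9ac peaks, of a window of 42619 bp. The H3K9cr replicates were on either side of the H3K9ac ones. Around Myf5 and around Myf6 the values were those of the single peak. At Myog, 887 and 1010 bp were covered by H3K9cr and 999 and 976 bp by H3K9ac. These lengths stood at percentiles 48.9 to 59.9 (Myod1), 29.4 to 34.1 (Myf5 and Myf6) and 28.7 to 30.6 (Myog) of all protein-coding genes.

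Over the whole table, limma with Benjamini-Hochberg adjustment found 35 of 16790 genes (0.208%) to differ between marks in covered length and 3 of 16255 (0.0185%) in the rank of the highest pileup in the window. No member was among them. Log2 differences in covered length, H3K9cr minus H3K9ac after centring, were -0.11 at Myod1, -0.20 at Myf5 and Myf6 and -0.15 at Myog, beside a spread within marks (pooled SD, n = 2 each) of 0.19, 0.25 and 0.10. The value at Myog exceeded the spread within marks and the others did not. However, the Myog value was 0.02 with peaks of a -log10 q of at least 10 and -0.05 without centring, both within that spread. It was -0.65 with a window of 5 kb and -0.49 with the gene record alone, where H3K9cr replicate 1 had no peak. Differences in the normal score of the pileup percentile were 0.01, 0.07, 0.07 and 0.13 for Myod1, Myf5, Myf6 and Myog, beside spreads of 0.08, 0.07, 0.07 and 0.08. Of these differences, only that at Myog exceeded its spread. With equal numbers of peaks per list the first 3 of these turned negative (-0.07, -0.03 and -0.03) and Myog stood at 0.03. When the window was narrowed to 5 kb, which leaves out the Kcnc1 peak, the score difference at Myod1 was 1.33 (limma, adjusted p = 0.0340), and with the gene record alone it was also 1.33 (adjusted p = 0.128). These last values restate the Myod1 ranks given above and add no independent evidence.

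Genes that act upstream of the myogenic factors were mostly occupied. Of 21 such regulators, 19 (90.5%) had a peak inside the gene in every library, against 66.3% of all protein-coding genes, and the median of their highest pileup was at percentile 54.4, against 75.9 for all genes so occupied. Those with the highest signal within 20 kb were Tbx6, a T-box factor of presomitic mesoderm (97.0 to 98.7 over the libraries, but 66.6 to 75.8 inside the gene), and Gli3, a mediator of hedgehog signalling (85.3 to 89.0). Meox2, a somite homeobox gene, had a peak in 2 of 4 libraries only, and Msgn1, a bHLH factor of presomitic mesoderm, had none inside the gene and peaks at 14.9 to 27.3 within 20 kb. Pax3 and Pax7, which act directly above the myogenic factors in muscle progenitors and are named here for that role, stood at 33.8 to 40.9 and 29.6 to 33.2. At 15 of the 19 regulators with a peak inside the gene in every library, the mean percentile there was higher than at Myf6. Over all protein-coding genes this held at 13410 of the 14513 with a peak inside the gene in every library.

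Partners, inhibitors and cofactors of the myogenic factors all carried peaks. All 21 had a peak inside the gene in every library, against 66.3% of all protein-coding genes. Their median percentile was 67.6, below the 75.9 of all genes so occupied. Ep300, an acetyltransferase that acts as a cofactor of MyoD, was highest (96.6 to 97.5). Smarcd3, a subunit of the BAF remodelling complex that MyoD recruits, reached 94.1 to 95.2 within 20 kb but 43.5 to 49.9 inside the gene. Hand2 and Twist1, bHLH factors of heart and of mesenchyme, were lowest, at 26.2 to 37.1 and 34.6 to 46.5 inside the gene. Id1, Id2 and Id3, which hold E proteins away from myogenic factors, had peaks in every library, at 59.4 to 62.8, 82.3 to 86.5 and 44.5 to 52.1.

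Genes of differentiated skeletal muscle stood apart from the share of all genes inside the record and near it within 20 kb, as counts with no test. Of 37, 16 (43.2%, against 66.3% of all protein-coding genes) had a peak inside the gene in every library, with a median percentile of 42.9 against 75.9, and 19 had none in any library. Within 20 kb, 23 (62.2%, against 74.3%) had a peak in every library, with a median percentile of 82.2 against 81.9 for all genes so occupied. There, 10 of the 37 had no peak in any library, against 23.3% of all genes, among them Actc1 (a sarcomeric actin), Cdh15 (M-cadherin), Musk (a receptor kinase of the neuromuscular junction) and Myh1 (a fast myosin heavy chain). Casq2 and Myom2, of the sarcoplasmic reticulum and the M-band, had a weak peak within 20 kb in 2 of 4 libraries each. Myl4, an embryonic and atrial myosin light chain, was highest at 99.0 to 99.4. Myom1 (96.0 to 96.8) and Chrnb1 (81.8 to 89.1) also stood above the median of 75.9 inside the gene. Mylpf, a fast-muscle light chain, had 97.7 to 99.5 within 20 kb but 53.7 to 59.1 inside the gene. A value within 20 kb can belong to a neighbouring gene, as it does at Myod1.

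Among tissue-specific bHLH genes of other lineages, 19 of 25 (76.0%, against 66.3% of all protein-coding genes) had a peak inside the gene in every library, and 5 had none in any. Most of the 25 are short, and of the 4230 genes of at most 4020 bp, 29.6% had a peak in every library and 68.9% had none. The median percentile of the 19 was 36.9, and their means over libraries ranged from 14.0 at Olig3, of neural progenitors, to 69.9 at Atoh7, of retinal progenitors, both named after their values were seen. The mean exceeded that of Myf6 at 8 of the 19, against 13410 of the 14513 protein-coding genes so occupied. Scx, a tendon factor, had no peak in its gene and 83.6 to 90.2 within 20 kb, and Lyl1, a blood factor, had 34.6 to 41.4 in the gene and 84.5 to 88.1 within 20 kb. Neurod4, of neurons, and Bhlha15, of secretory cells, had a peak within 20 kb in 3 of 4 libraries. These lists were compared by counts and medians alone, with no test.

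**Figure D4:**
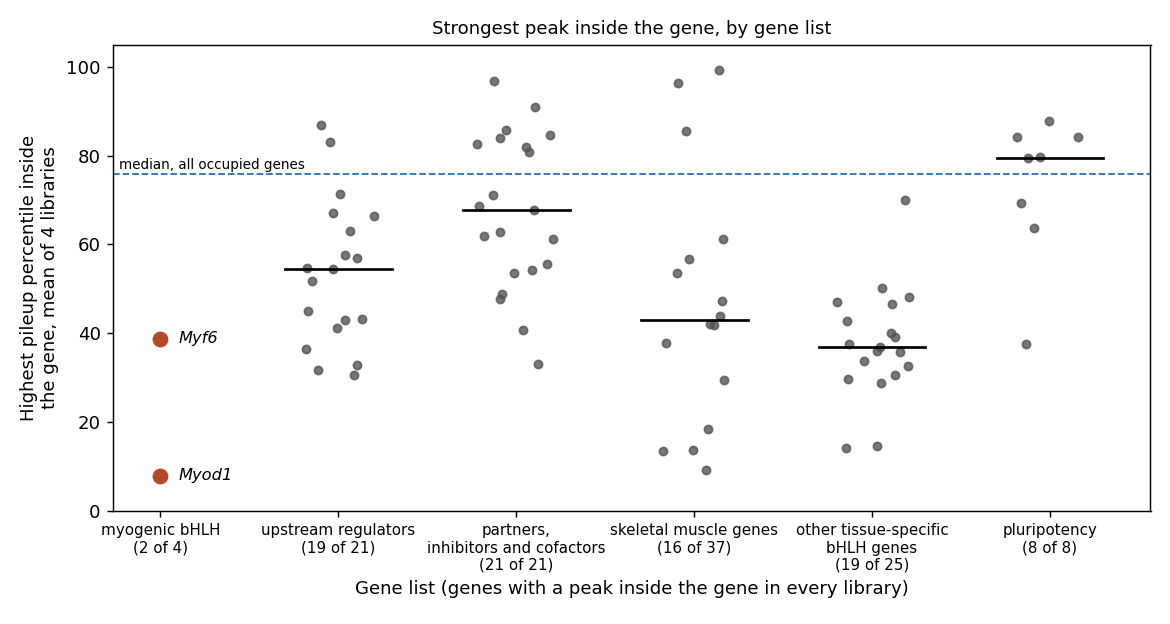
Percentile of the highest summit pileup inside the gene, as the mean of 4 libraries (vertical axis), for genes of each list with a peak inside the gene in every library (the count is under each list). Points are genes, black bars list medians, and the dashed line the median of all such genes (75.9). Myf6 lies within the range of the other tissue-specific bHLH genes (14.0 to 69.9) and Myod1 below all of the points drawn.

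Markers of undifferentiated and of other cells were examined as a check of the cell label. All 8 pluripotency genes examined, among them Pou5f1 and Sox2, had a peak inside the gene in every library, with a median percentile of 79.5. Of all protein-coding genes 66.3% had one, with a median of 75.9. Of the 7 fibroblast, 3 blood and 2 liver genes examined, 4, 0 and 1 had such a peak. The fibroblast share of 57.1% and the pluripotency median were near the values of all genes, so this check of the label is weak.

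The genes with the most similar windows were sought by Euclidean distance over 8 values, the percentiles of covered length and of highest pileup in each of the 4 libraries. For Myod1 they were Arhgap20 (8.44), Cnpy1 (8.89) and Trmt2b (9.27), and most of the covered length in the Myod1 window is the Kcnc1 peak. For Myf5 the nearest was Myf6 at a distance of 0, since both windows hold the same peak, followed by Gm3739 and Gm5797 at 4.54 each. For Myog they were Prss30 (4.34), Prss22 (4.40) and Psg17 (5.01).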

How the data were processed

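Libraries were grouped by mark and replicate as the labels give them. The authors deposited 1 MACS2 2.2.7.1 peak list per library, after alignment with Bowtie2 2.4.1 to GRCm38, per the submitters' processing notes, with options not stated there. Per the file headers, each peak has a start, end, length and summit. The pileup that the authors deposited is a coverage signal at the summit. Their deposited fold enrichment is a ratio over local background. Deposited p-values and q-values are given on the -log10 scale. Depth is unknown, so no counting interval is given.

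Percentiles were ranks within a list, with ties at their mean. A peak counted from an overlap of 1 bp, with positions from 1. Covered length was log2(bp + 200), centred on the library median, at genes with a peak in at least 1 library. The rank test used normal scores at genes occupied in all 4 lists. Both were fitted with limma 3.58.1 under R 4.3.3, with a threshold of 0.05 for the adjusted p. Only the fit of covered length was tested on simulated data. Whole-list values of 2 against 2 libraries allow no exact p below 0.333. Other steps used Python 3.11.15, numpy 2.4.6, pandas 2.3.3 and matplotlib 3.10.9. Promoter CpG, GC and E-boxes were counted in RefSeq sequence of GRCm38.p6 before the start; Myod1 and Myf6 were not analysed for these.

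Members and lists were chosen with earlier results of these data known. Named besides the members were genes at peaks in their windows, the 2 strongest and 2 weakest of each list, up to 4 without a peak, and the 3 most alike genes. Pax3, Pax7, the Id genes, Pou5f1, Sox2, and the gene Ptprq were named for their role or place. Olig3, Atoh7, Myom1 and Chrnb1 were named after their values were seen. Alternatives were other windows, stricter or equal lists, summit position, left-out libraries, a replicate block, and other pseudocounts, centring, filters and ranks.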

Additional observations from a re-analysis of the deposited data

How the results depend on the processing

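All 4 members kept a peak within 20 kb in every library with a window of 50 kb, stricter or equal lists, summits only, or any library left out. The count was 2 with a window of 5 kb and 2 with the gene record alone (Myod1 and Myf6 both times), and 3 without peaks at ends of other coding genes. Inside the record, settings added after seeing the data gave 1 member (Myf6) with a -log10 q of at least 10 and 1 with equal numbers of peaks, because the Myod1 peak dropped from some lists, and 2 to 3 with 1 library left out (3, with Myog, without H3K9cr replicate 1).

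The genome-wide counts were unstable. For covered length, 35 calls became 22 with the gene record alone, 22 with stricter peaks, 63 with all genes, 0 with a pseudocount of 1000 bp, 0 at genes occupied in all lists, 0 with the replicate block, and 0 to 86 with 1 library left out (86 without H3K9ac replicate 1, 0 without each other one). For the pileup rank, 3 calls became 11, 17 and 10 with windows of 5 kb, 50 kb and the gene record alone, 98 with the replicate block, 0 with fold enrichment, 0 with genes with a peak in at least 1 library, and 60 to 498 with 1 library left out (498 without H3K9ac replicate 2, 102 and 84 without H3K9cr replicates 1 and 2). The labels do not say that replicate numbers pair the libraries, and replicate differences of the marks correlated at 0.12 and 0.06 across genes for the 2 measures. The cause of these changes was not tested. Without centring the median difference in covered length moved from -0.02 to 0.08. With equal numbers of peaks the median difference in the normal score of the pileup percentile moved from 0.04 to -0.0046.

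The score at Myod1 with a window of 5 kb (adjusted p = 0.0340) restates the ranks known when the gene was chosen and is no evidence. Of 106 recomputed member differences, 91 moved by less than the spread within marks and 15 by more. Signs of the small differences were not stable. The score difference turned to -0.07, -0.06 and -0.03 at Myod1, and to -0.03, -0.0028 and -0.0057 at Myf5 and Myf6, with equal numbers of peaks, without H3K9ac replicate 1, and at genes with a peak in at least 1 library. Covered length turned to 0.08 at Myod1 without H3K9cr replicate 2, to 0.03 at Myf5 and Myf6 without H3K9ac replicate 1, and to 0.02 at Myog with stricter peaks. Missing peaks are below the authors' threshold and not a measured absence.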
